A study of Mus musculus with 20 samples.

Results

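The genes described here are 10 heat shock chaperone genes measured by RNA sequencing of whole tumour tissue in a mouse breast cancer (BC) model: Hspa1a, Hspa1b, Hspa8, Hsph1, Dnajb1, Hsp90aa1, Hsp90ab1, Hspd1, Hspe1 and Hspb1. They were taken by symbol from a table with 15465 named rows that hold BC values; each of the 10 had exactly 1 row, and all 10 passed the filter on low values. The BC groups were 4 primary tumours and 4 metastases in the lung, 1 of each from every one of 4 mice, all derived from 4T1 cells, a mouse mammary carcinoma line, and all sampled at 28 days. The labels describe the tumours as orthotopic, give no treatment and no host strain, and make every tumour a derivative of 1 cell line. The pancreatic cancer libraries of the series are not used here, because their values do not stand beside the gene symbols of their own rows.

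Heat shock proteins keep other proteins folded. In the cytosol, HSP70 proteins (here Hspa1a, Hspa1b and Hspa8) bind exposed stretches of a client, J-domain partners such as Dnajb1 deliver the client and trigger ATP hydrolysis, and Hsph1 (HSP110) releases ADP so that the cycle can start again. HSP90 (Hsp90aa1 and Hsp90ab1) takes over late-folding clients such as kinases and steroid receptors; Hspd1 (HSP60) and its lid Hspe1 (HSP10) fold proteins in mitochondria; and Hspb1 (HSP25 in mice) holds unfolding proteins without using ATP. Several of these genes are switched on by the transcription factor HSF1, which binds repeats of the letters GAA in alternating orientation (heat shock elements). Tumours are known for high chaperone levels.

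Of the 10 chaperone genes, 1 passed the test between primary tumours and lung metastases. Hspb1 rose in the metastases, from 6.05 ± 4.02 to 33.9 ± 2.79 normalised reads (mean ± SD, n = 4 mice), a ratio of means of 5.59. No other member was called with all 8 libraries: 1 of 10 was called higher and 0 lower, where 7.18% of the 14003 genes tested were called higher and 1.96% lower (9.13% in either direction). The members' median log2 change was 0.00 (-0.0046), beside -0.06 over all genes tested, with 5 members above 0 and 5 below; the 10 genes were not tested as a group. Hsph1 had the next smallest p and did not pass with all 8 libraries; it passed once the lung metastasis of mouse 3 was left out.

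Values are normalised read counts, reads per 1000000 of a scaled library, and changes are differences of log2(value + 1), lung metastasis minus primary tumour. Adjusted p-values are from limma with Benjamini-Hochberg adjustment over all 14003 genes, and a gene was called at an adjusted p under 0.05. Depth was 15447918 to 28995834 reads per library, lowest in the metastasis of mouse 3. That library stood apart. Its 10 chaperone genes together took 0.228% of the normalised reads, against 0.569% to 0.694% in the other metastases and 0.590% to 0.632% in the primary tumours. The same library had the highest summed level of 16 lung epithelium genes (3.40%, against 0.752% to 2.02% in the other metastases and 0.00187% to 0.00468% in the primary tumours) and of 13 neutrophil genes (3.06%, against 0.842% to 1.47%). All 16 lung epithelium genes were above 0 in every metastasis, and 15 of the 16 were called higher. Sftpa1, Sftpb, Sftpd, Scgb3a1, Scgb3a2, Nkx2-1, Lamp3, Slc34a2 and Cldn18 were below 1 in every primary tumour. These passed the filter on low values only through the metastases, so the count of calls was partly set by that filter. In primary tumours Scgb3a1, Nkx2-1, Slc34a2 and Sftpd had libraries at 0 reads, and none of the 16 exceeded 17.2. Their part in the chaperone values was not tested. In whole tissue, fewer cells of a type and less RNA per cell cannot be told apart.

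**Figure D1:**
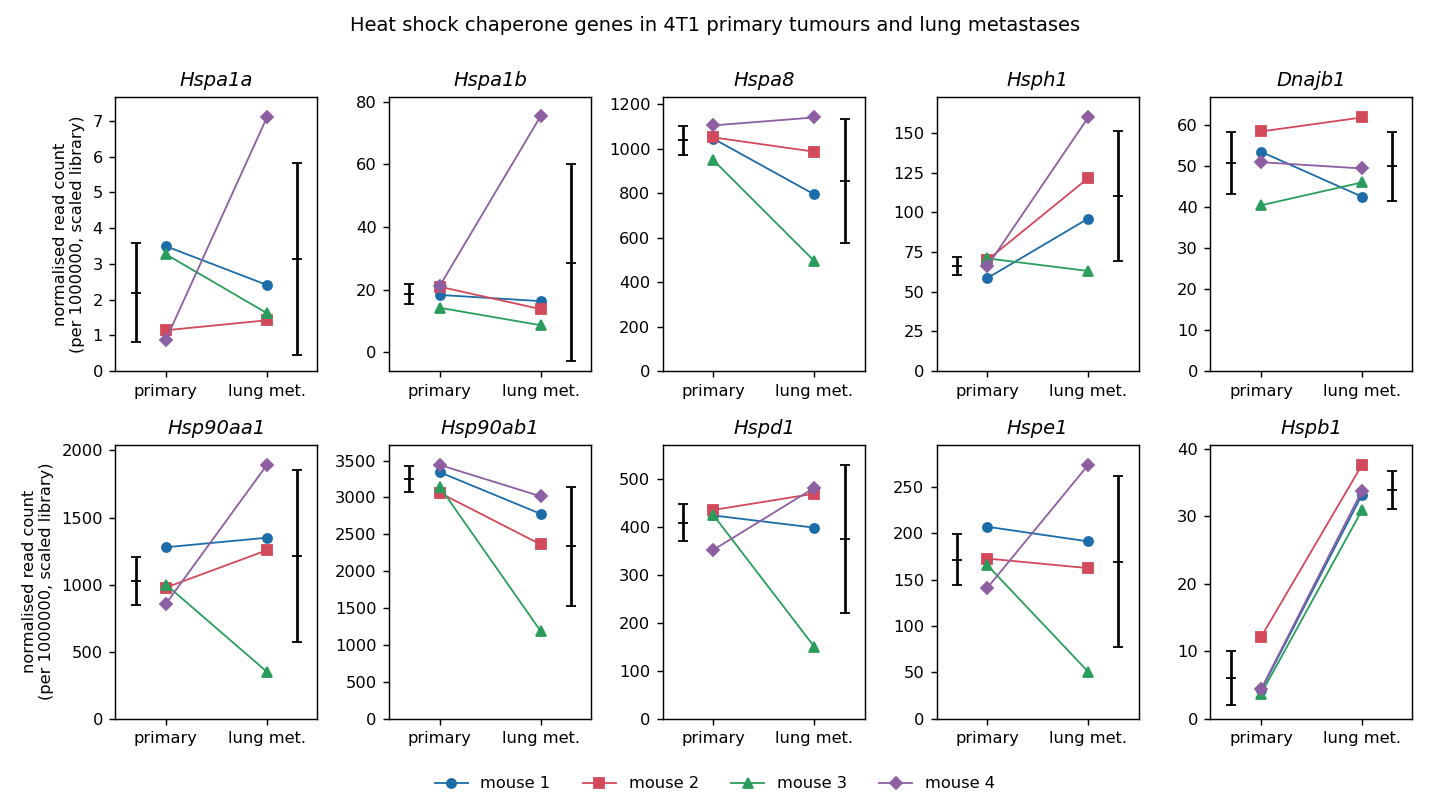
Each panel plots 1 chaperone gene as normalised read count per 1000000 of a scaled library (y axis, linear) in the primary tumour and lung metastasis of each mouse, joined by a line; the short black bars are group means and the whiskers 1 SD (n = 4). Hspb1 sits between 30.9 and 37.6 in the metastases, above every primary tumour, and the metastasis of mouse 3 is the lowest metastasis for 8 of the 10 genes.

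Hspa8 encodes HSC70, the HSP70 made in all cells without stress. It stood at 1045, 1051, 949 and 1105 in the primary tumours of mice 1 to 4 and at 794, 987, 495 and 1141 in their metastases. The metastasis was lower in mice 1, 2 and 3 and slightly higher in mouse 4, so the groups overlapped. The change was -0.34 (SE 0.278, 95% interval -0.96 to 0.27, adjusted p = 0.493 by limma). Of the 50-base windows of its longest coding transcript 73.2% also occur in transcripts of other genes, most of them in Gm15459 (GENCODE M21), the largest such share among the 10 genes, so the level of Hspa8 is uncertain too.

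Hspa1a and Hspa1b are neighbouring single-exon genes that encode the stress-inducible HSP70, and their upstream sequences are shown because the pair can hardly be told apart. Over the 250 bases before the annotated start the copies differ at 3 positions (98.8% identical; RefSeq, GRCm38.p6, minus strand, chr17:34972157-34972406 for Hspa1a and chr17:34959239-34959488 for Hspa1b). Capitals mark matches to GAANNTTC or TTCNNGAA, the 2 arrangements of a pair of heat shock repeats. Each of these motifs reads the same on both strands.
Hspa1a: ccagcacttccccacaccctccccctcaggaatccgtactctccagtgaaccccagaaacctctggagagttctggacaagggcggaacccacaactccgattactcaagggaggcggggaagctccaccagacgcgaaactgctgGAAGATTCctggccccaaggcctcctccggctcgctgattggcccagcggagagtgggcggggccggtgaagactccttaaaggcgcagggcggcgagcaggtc
Hspa1b: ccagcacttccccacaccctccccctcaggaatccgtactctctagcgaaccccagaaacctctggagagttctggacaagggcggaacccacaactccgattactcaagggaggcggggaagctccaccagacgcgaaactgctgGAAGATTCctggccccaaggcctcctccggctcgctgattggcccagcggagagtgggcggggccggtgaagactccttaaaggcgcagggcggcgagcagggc
Each holds 1 match, beginning 104 bases before the start, and 1 CCAAT box (CCAAT or ATTGG). Of the 32851 promoters of the table, 12.8% hold such a pair within the same 250 bases and 33.8% a CCAAT box. The similarity extends into the transcripts: 58.8% of the 50-base windows of the Hspa1a transcript occur in Hspa1b, and 62.3% of those of Hspa1b in Hspa1a (GENCODE M21), so the separate values of the 2 genes are uncertain and their sum is given as well.

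Hspa1b stood at 18.3, 20.9, 14.2 and 21.1 in the primary tumours and at 16.3, 13.7, 8.59 and 75.5 in the metastases of mice 1 to 4. A single library carried the high value: the metastasis of mouse 4 was 3.58 times its primary tumour, and the metastases of mice 1, 2 and 3 were all below theirs. Hspa1a was low throughout, at 3.50, 1.14, 3.27 and 0.881 in the primary tumours and 2.41, 1.42, 1.62 and 7.10 in the metastases, from 24 to 169 reads per library. It too was highest in the metastasis of mouse 4. Summed, the pair stood at 21.8, 22.0, 17.4 and 22.0 against 18.7, 15.2, 10.2 and 82.6, with a change of 0.11 (SE 0.516, 95% interval -1.04 to 1.25, adjusted p = 0.925 by limma). Without the metastasis of mouse 4 the change of the sum was -0.51 (adjusted p = 0.24), the opposite direction, and still not called. The changes of Hspa1b (0.10, adjusted p = 0.932) and Hspa1a (0.30, adjusted p = 0.741) taken alone were not called either.

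Dnajb1 encodes the HSP40 that works with the inducible HSP70 and is itself a classic HSF1 target. It stood at 53.4, 58.4, 40.4 and 50.9 in the primary tumours and at 42.5, 61.8, 46.0 and 49.4 in the metastases. It was the steadiest of the 10 genes between the groups: the metastasis was higher in 2 mice and lower in 2, and the 95% interval of the change was the narrowest, -0.43 to 0.38 (change -0.03, SE 0.185, adjusted p = 0.949 by limma). Unlike Hspa1b, it was not raised in the metastasis of mouse 4, where the ratio to the primary tumour was 0.970. Neither of its 2 annotated starts had a heat shock pair in the 250 bases before it, which says only that these letters are not in this window.

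Hsph1 encodes HSP110, the nucleotide exchange factor of HSP70. It stood at 58.5, 69.9, 71.0 and 66.0 in the primary tumours and at 96.1, 121.6, 63.1 and 159.8 in the metastases. The metastases of mice 1, 2 and 4 lay above every primary tumour, by 1.64, 1.74 and 2.42 times within the mouse, and that of mouse 3 lay below its own (0.888 times). The change was 0.65 (SE 0.254, 95% interval 0.08 to 1.21, unadjusted p = 0.028, adjusted p = 0.156 by limma). Without the metastasis of mouse 3 it was 0.89 and called (adjusted p = 0.00957), and without both libraries of mouse 3 it was 0.92 (adjusted p = 0.0208). With array weights and with DESeq2 on the recovered reads it was also called (adjusted p = 0.00725 and 0.0426; 0.00725 to 0.318 over its 18 alternatives). The sequence before the more upstream of its 2 starts (RefSeq, GRCm38.p6, chr5:149636337-149636586, minus strand) has its match beginning 33 bases before that start, and is shown for comparison with the HSP70 pair, with the same use of capitals.
Hsph1: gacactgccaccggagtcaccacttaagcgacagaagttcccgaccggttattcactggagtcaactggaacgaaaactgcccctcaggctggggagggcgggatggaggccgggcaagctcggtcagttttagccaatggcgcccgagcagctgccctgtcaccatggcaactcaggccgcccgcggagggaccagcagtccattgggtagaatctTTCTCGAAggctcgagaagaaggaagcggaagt
No 50-base window of the longest Hsph1 transcript occurs in a transcript of another gene, so its reads are not subject to the uncertainty of the HSP70 pair.

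The HSP90 genes differed from each other in their values. Hsp90ab1, the constitutive form, stood at 3342, 3063, 3144 and 3441 in the primary tumours and at 2777, 2362, 1187 and 3015 in the metastases. It was lower in the metastasis of all 4 mice, and the groups did not overlap, by a gap between 3015 and 3063. Of all genes tested 17.9% had groups that did not overlap (7.56% with the metastases lower, 10.4% higher), and of the 10 members 2 did, Hsp90ab1 and Hspb1. The change of Hsp90ab1 was -0.56 (SE 0.369, 95% interval -1.38 to 0.26, adjusted p = 0.401 by limma) and was called under none of the 18 alternatives; without the metastasis of mouse 3 it was -0.26 (adjusted p = 0.478).

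Hsp90aa1, the stress-inducible form, stood at 1278, 978, 1000.3 and 857 in the primary tumours and at 1349, 1256, 349 and 1892 in the metastases. It was higher in the metastasis of mice 1, 2 and 4, by 1.06, 1.28 and 2.21 times, and lower in mouse 3, by a ratio of 0.349. The mean change was 0.02 (SE 0.459, 95% interval -1.001 to 1.034, adjusted p = 0.988 by limma), and 0.54 (adjusted p = 0.135) without the metastasis of mouse 3. Much of the Hsp90aa1 transcript is shared: 58.5% of its 50-base windows occur in other genes, most of them in Gm12346. That gene stood at 8.24 to 15.9 in the primary tumours and 7.98 to 27.6 in the metastases, small beside Hsp90aa1 itself. For Hsp90ab1 the share was 4.49%.

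Hspd1 and Hspe1 encode the barrel and the lid of the mitochondrial chaperonin and lie head to head, so they share the stretch of DNA between them. It is 215 bases long from the base after the nearer Hspd1 start to the base before the Hspe1 start (RefSeq, GRCm38.p6, chr1:55087933-55088147, printed on the plus strand, which is the strand of Hspe1). Hspd1 reads from its left end leftwards. It is shown because it holds the densest heat shock repeats among the 7 members with a sequence to search; capitals mark the same pairs as above.
Hspd1-Hspe1: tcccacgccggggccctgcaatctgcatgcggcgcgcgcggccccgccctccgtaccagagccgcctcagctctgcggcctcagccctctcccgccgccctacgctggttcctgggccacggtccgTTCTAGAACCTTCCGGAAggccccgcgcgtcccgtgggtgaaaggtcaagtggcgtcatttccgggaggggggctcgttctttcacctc
The capitals are 18 bases in which 3 overlapping pairs follow each other. They include 2 overlapping matches to the 3-repeat form, a pair extended on one side by a further inverted repeat after 2 free bases. Only 0.466% of the 32851 promoters hold a 3-repeat form in the same 250-base window. The other Hspd1 start of the table, which lies on the far side of the Hspe1 start, has no match before it.

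Hspd1 stood at 423.5, 435, 424 and 352 in the primary tumours and at 398, 469, 149.5 and 481 in the metastases. Hspe1 stood at 207, 173, 166 and 141 in the primary tumours and at 191, 163, 50.6 and 274 in the metastases. In both genes the metastasis of mouse 3 was the lowest of the 8 libraries and that of mouse 4 the highest. The changes were -0.26 for Hspd1 (SE 0.340, 95% interval -1.01 to 0.50, adjusted p = 0.688 by limma) and -0.24 for Hspe1 (SE 0.425, 95% interval -1.18 to 0.71, adjusted p = 0.775). Both turned above 0 without the metastasis of mouse 3, to 0.14 (adjusted p = 0.604) and 0.26 (adjusted p = 0.457), still not called. The ratio of Hspd1 to Hspe1 within a library was 2.04 to 2.56 in the primary tumours and 1.76 to 2.96 in the metastases, and its lowest value was in the metastasis of mouse 4. Other genes hold 44.8% of the 50-base windows of Hspd1 and 36.1% of those of Hspe1, so part of their reads may be assigned elsewhere or dropped; how such reads were counted is not given in the sources used here.

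Hspb1 encodes the small heat shock protein HSP25, an ATP-independent holder of unfolding proteins that also binds actin. It stood at 4.17, 12.1, 3.64 and 4.33 in the primary tumours and at 33.2, 37.6, 30.9 and 33.8 in the metastases. Every metastasis lay above every primary tumour. The primary tumours other than that of mouse 2 lay close together. The change was 2.44 (SE 0.331, 95% interval 1.71 to 3.18, adjusted p = 0.00126 by limma), higher in 4 of 4 mice, by 7.95, 3.12, 8.48 and 7.80 times within mice 1 to 4. It ranked 205 by p among the 14003 genes tested. The call held under all 18 alternatives (adjusted p 3.12e-08 to 0.0105). Hspb1 was lowest of the metastases in mouse 3, where lung epithelium, neutrophil, endothelium and erythroid genes were all highest. Among metastases, that of mouse 2 had the highest shares of mesothelium (0.0540%, against 0.0184% to 0.0426%) and fibroblast genes (0.256%, against 0.132% to 0.179%). The macrophage share was also highest there (0.197%, against 0.0727% to 0.152%), as was the cell cycle share (0.307%, against 0.119% to 0.272%). Hspb1 was highest there too. Over the 4 metastases Hspb1 spanned only 30.9 to 37.6, so its order among them rests on small differences. Its highest primary tumour, that of mouse 2, had the highest shares among primary tumours of neutrophil genes (0.276%, against 0.0365% to 0.0475%), endothelium genes (0.107%, against 0.0284% to 0.0449%) and immediate early genes (0.132%, against 0.0975% to 0.105%). Mesothelium (0.00554%), fibroblast (0.0880%) and macrophage (0.143%) shares were the lowest among primary tumours in that of mouse 2. The part of these signals in the Hspb1 values was not tested. Of the 50-base windows of the Hspb1 transcript 51.6% also occur in Hsp25-ps1, which has no named row under that symbol, so its level cannot be given. The 250 bases before its start (RefSeq, GRCm38.p6, chr5:135887669-135887918, plus strand) are shown because Hspb1 alone was called; they hold 2 separate pairs in capitals and no 3-repeat form.
Hspb1: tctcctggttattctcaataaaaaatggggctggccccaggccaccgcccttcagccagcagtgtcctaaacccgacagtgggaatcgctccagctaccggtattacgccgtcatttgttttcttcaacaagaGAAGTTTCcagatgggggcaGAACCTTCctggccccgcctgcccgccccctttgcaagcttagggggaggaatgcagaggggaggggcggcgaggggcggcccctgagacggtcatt
The nearer pair begins 97 bases before the start.

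**Figure D2:**
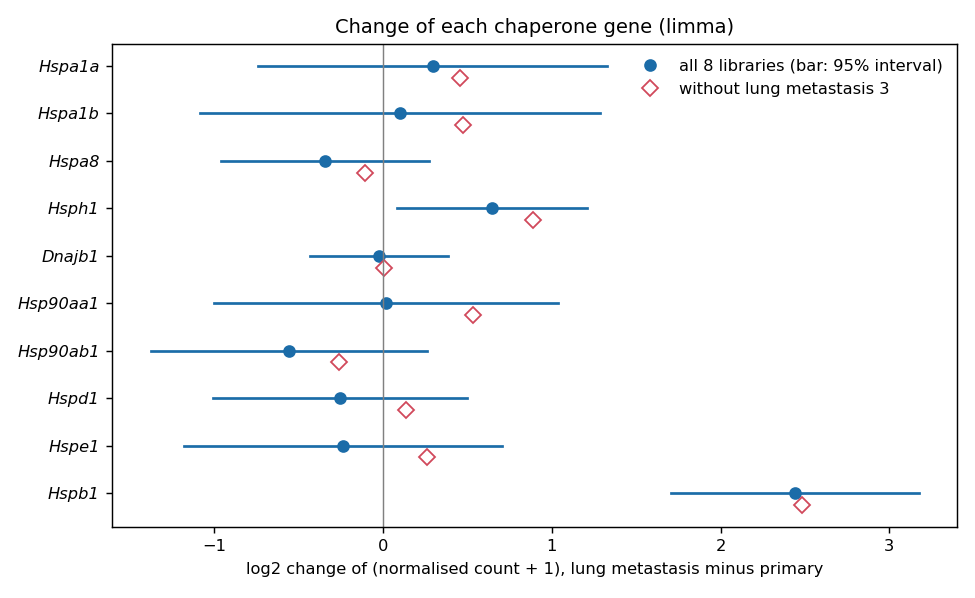
Log2 change of (normalised count + 1), lung metastasis minus primary tumour, for each of the 10 genes with all 8 libraries (filled circles, bars are 95% intervals from limma) and without the lung metastasis of mouse 3 (open diamonds, no interval drawn). The interval of Hspb1 (1.71 to 3.18) lies far above 0, that of Hsph1 starts at 0.08, and the intervals of the other 8 genes include 0.

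Per kilobase of the longest coding transcript (GENCODE M21), which allows levels of different genes to be compared, Hsp90ab1 was the most abundant of the 10 in primary tumours, at 1289 ± 69.1 normalised reads per kilobase. It was followed by Hspa8 (433 ± 27.2), Hsp90aa1 (313 ± 54.3), Hspe1 (222 ± 35.3) and Hspd1 (169 ± 15.8). Far lower came Hsph1 (17.5 ± 1.48) and Dnajb1 (16.9 ± 2.53), which did not differ beyond their spread, then Hspa1b (6.64 ± 1.15) and Hspb1 (6.51 ± 4.32), which did not either, and Hspa1a (0.741 ± 0.464). In the metastases Hspb1, at 36.4 ± 3.00 per kilobase, stood beside Hsph1 (29.0 ± 10.7) and above Dnajb1 (16.7 ± 2.81). The order of Hsp90ab1 (927 ± 322), Hsp90aa1 (369 ± 195), Hspa8 (357 ± 116), Hspe1 (219 ± 119) and Hspd1 (155 ± 63.7) there was within the spread between neighbours from Hsp90aa1 down. These levels depend on transcripts of another annotation than the one behind the reads, and those of Hspa1a, Hspa1b, Hspa8, Hsp90aa1, Hspd1, Hspe1 and Hspb1 are uncertain through the shared sequence given above.

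The wider chaperone network was described with 8 lists of 96 further genes, 90 of which were tested. Of these, 3 were called higher and 1 lower, beside 7.18% and 1.96% of all genes, and 25 had changes above 0 and 65 below, with a median of -0.13 against -0.06 over all genes. With the mouse as a replicate block 2 were called, both higher. With median-ratio scaling 4 were called higher and 0 lower. Among the genes called higher, Hspb7 and Hspa12a passed the filter on low values only through the metastases, the group where they were high. Small heat shock proteins held 2 of the called genes. Cryab, alpha-B crystallin, a partner of Hspb1 in mixed oligomers, stood at 14.4, 22.0, 13.5 and 14.9 in the primary tumours and 53.3, 63.2, 74.6 and 61.8 in the metastases. As with Hspb1, every metastasis lay above every primary tumour and the primary tumour of mouse 2 was the highest of its group. Its change was 1.92 (SE 0.207, adjusted p = 0.000376 by limma; 5.42e-15 to 0.00376 over 18 alternatives). Hspb7, a small heat shock protein of muscle, was at 0.00, 1.26, 0.101 and 0.00 in the primary tumours and 2.37, 1.46, 5.48 and 2.02 in the metastases (adjusted p = 0.0462). Its primary tumours held only 0, 32, 3 and 0 reads. Its call ended with the mouse as a block (adjusted p = 0.0911), with edgeR (0.221) and DESeq2 (0.123), with a pseudocount of 5 (0.0862) and without any single library other than the primary tumour of mouse 2 (0.0621 to 0.143). The other 4 tested small heat shock genes had changes below 0, so the list median was -0.31.

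Hspa12a, a distant HSP70 relative, rose from 1.03, 0.868, 0.00 and 0.951 to 3.88, 8.89, 12.98 and 4.96 (adjusted p = 0.00633 by limma; 0.0598 with edgeR, and 0.00096 to 0.0598 over 18 alternatives). Its primary tumours held only 26, 22, 0 and 27 reads. Hspa12a was the 1 called gene of 7 tested HSP70 and HSP110 relatives. Its order over the metastases was not that of Hspb1: it was highest in mouse 3. Fkbp5, an immunophilin co-chaperone of HSP90 and a known glucocorticoid target, fell from 175.3, 181.6, 209 and 226 to 120.7, 146 (mouse 2), 121.5 and 141.6 (change -0.57, adjusted p = 0.0452 by limma). Its call ended with the block (adjusted p = 0.0929), with median-ratio scaling (0.0523), with edgeR (0.0556) and without any single library other than the metastasis of mouse 3 (0.058 to 0.16). It was the 1 called gene of 23 co-chaperones, of which 19 had changes below 0.

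The remaining lists had 0 called genes. All 13 genes of the cytosolic chaperonin TRiC and prefoldin had changes below 0, with a median of -0.41. Cct5, a TRiC subunit with the smallest p of that list, stood at 1026, 845, 786 and 972 in the primary tumours and 687, 654, 243 and 991 in the metastases (adjusted p = 0.336). In sum the list stood at 4369 to 4985 in the primary tumours and, in mice 1 to 4, at 3926, 4162, 1551 and 4779 in the metastases, so that its low values lay mainly in the metastasis of mouse 3, as those of Hspd1 and Hsp90ab1 did. Mitochondrial chaperones and proteases had 8 of 11 changes below 0 (median -0.31), with the smallest p for Clpx, an unfoldase of the mitochondrial matrix (change -0.36, adjusted p = 0.312). J-domain proteins had 10 of 16 below 0 (median -0.06), with the smallest p for Dnaja2 (-0.29, adjusted p = 0.388). Endoplasmic reticulum chaperones had 6 of 11 below 0 (median -0.08), with the smallest p for Dnajc3, an inhibitor of the kinase PERK. Dnajc3 stood at 116.7 to 158 in the primary tumours and 190.7 to 223.5 in the metastases without overlap, at an adjusted p of 0.0744; it was called with median-ratio scaling (0.05, just under the threshold), array weights (0.0169) and DESeq2 (0.00368) and without the metastasis of mouse 3 (0.0372) or both libraries of mouse 3 (0.0494; 0.00368 to 0.214 over 18 alternatives). Among 3 tested heat shock factors and regulators the smallest p was that of Hsf2 (-0.52, adjusted p = 0.322). Hsf1, the factor that drives the stress response, changed by 0.06 (adjusted p = 0.875); it is named outside the naming rule, after its value was seen.

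**Figure D3:**
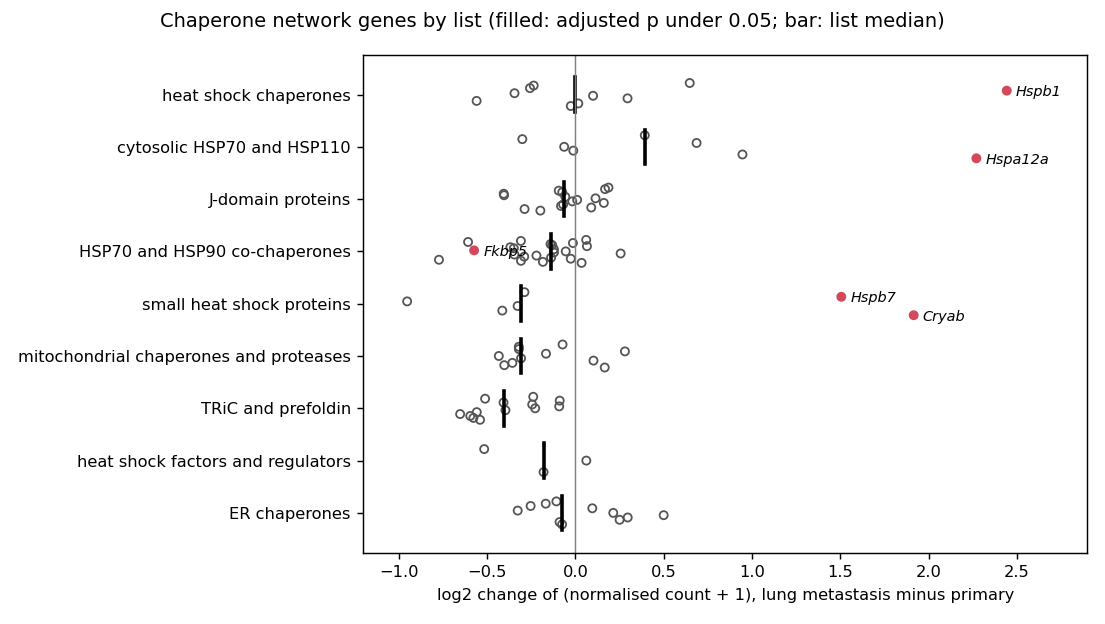
Each circle is the log2 change of (normalised count + 1), lung metastasis minus primary tumour, of 1 tested gene, in rows for the 10 heat shock chaperones and for each list of the wider network; filled circles were called at an adjusted p under 0.05 and the black bar is the list median. Called genes (Hspb1, Cryab, Hspb7, Hspa12a and Fkbp5) are labelled, and all 13 TRiC and prefoldin genes lie left of 0.

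Across the 8 libraries, the genes whose profiles lay nearest to a member were found by the root mean square difference of log2(value + 1) after centring each gene on its mean. Nearest to Hspb1 were Pmp22, a myelin and epithelial membrane protein, Pdpn, podoplanin, known from alveolar type 1 cells, lymphatic endothelium and fibroblasts, and Zbtb7c (differences 0.273, 0.283 and 0.337, against a spread of Hspb1 about its own mean of 1.30). Pdpn stood at 6.04, 23.1, 7.89 and 5.95 in the primary tumours and 54.0, 93.2, 63.6 and 66.1 in the metastases, with the same high primary tumour of mouse 2. Zbtb7c was near the floor in the primary tumours (0.00, 1.06, 0.00 and 0.317) and stood at 4.23, 6.33, 8.04 and 3.74 in the metastases. It passed the filter on low values only through the metastases, so its likeness to Hspb1 follows in part from that filter. Nearest to Hsph1 were Gpr126, Ptprn and Gm12854 (0.160, 0.161 and 0.206, against a spread of 0.479). Hsp90ab1 was nearest to Snx9, Ash2l and Sec11a (0.0831 to 0.0941, against 0.470), and Hspd1 to Aasdhppt, Mgat2 and Ran, the nuclear transport GTPase (0.0615 to 0.0943, against 0.512). Ran, like Hspd1, was lowest in the metastasis of mouse 3 (143) and highest in that of mouse 4 (549.6). Among pairs of members the closest profiles were those of Hsp90aa1 and Hspe1 (0.140), ahead of Hsp90ab1 and Hspa8 (0.197) and of the neighbours Hspd1 and Hspe1 (0.241). By closeness over all tested genes, Hspe1 ranked 3 from Hsp90aa1, Hspa8 ranked 466 from Hsp90ab1 and Hspe1 ranked 557 from Hspd1. Many genes outside the members thus lay closer to Hsp90ab1 and to Hspd1 than these partners did.

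Other signals moved between the groups too. Called higher in the metastases were 11 of 13 neutrophil genes, 7 of 7 tested mesothelium genes, 5 of 5 tested erythroid genes and 6 of 12 endothelium genes, and 2 of 10 tested macrophage genes were called lower. All tested mesothelium genes but Msln were below 1 in every primary tumour. They passed the filter on low values only through the metastases, so the mesothelium count was largely set by that filter. Of 10 fibroblast genes 1 was called higher and 3 lower, and of 11 tested T and NK cell genes 2 were called higher. Over all genes tested 7.18% were called higher and 1.96% lower. The metastasis of mouse 3 had the highest share of endothelium genes (0.307%, against 0.0692% to 0.131% in the other metastases) and of erythroid genes (0.923%, against 0.205% to 0.393%). Of 16 immediate early genes, which many stimuli induce within minutes, 7 were called higher and 0 lower, and their summed level was 954 to 1308 in the primary tumours and 1453 to 2368 in the metastases, highest in the metastasis of mouse 4. Fos stood at 188 there, against 54.2 to 111.5 in the other metastases and 9.17 to 41.7 in the primary tumours. Of the 10 members 7 were highest in that library as well, Hspa1b but also Hspa8, Hspd1 and Hspe1 among them. The immediate early sum was next highest in the metastasis of mouse 3 (2148), where 6 of the 10 members were lowest of the 8 libraries. Unlike Fos, Dusp1, Zfp36 and Btg2 were highest in the metastasis of mouse 3. The summed level of 17 cell cycle genes was 1383 to 2328 in the primary tumours and, in the metastases, 1244 in mouse 3 and 2542 to 2959 in the others. The 12 mammary epithelial markers chosen to check the label summed to 1633 to 2943 in the primary tumours and 1117 to 3530 in the metastases, lowest in the metastasis of mouse 3 and highest in that of mouse 4. Krt8 and Krt18 were abundant in all 8 libraries (196 to 1462), and Krt5, a basal keratin, was near 0 in several of them. Of these 12 genes 1 was called higher and 1 lower. Krt19 stood at 8.77 to 22.2 in the primary tumours and 76.0 to 188 in the metastases, Cldn4 at 69.2 to 169 and 4.77 to 41.8. How much of the sum in the metastases came from lung epithelium was not tested, so the sum does not settle the share of tumour cells. The part of these signals in the chaperone values was not tested.

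**Figure D4:**
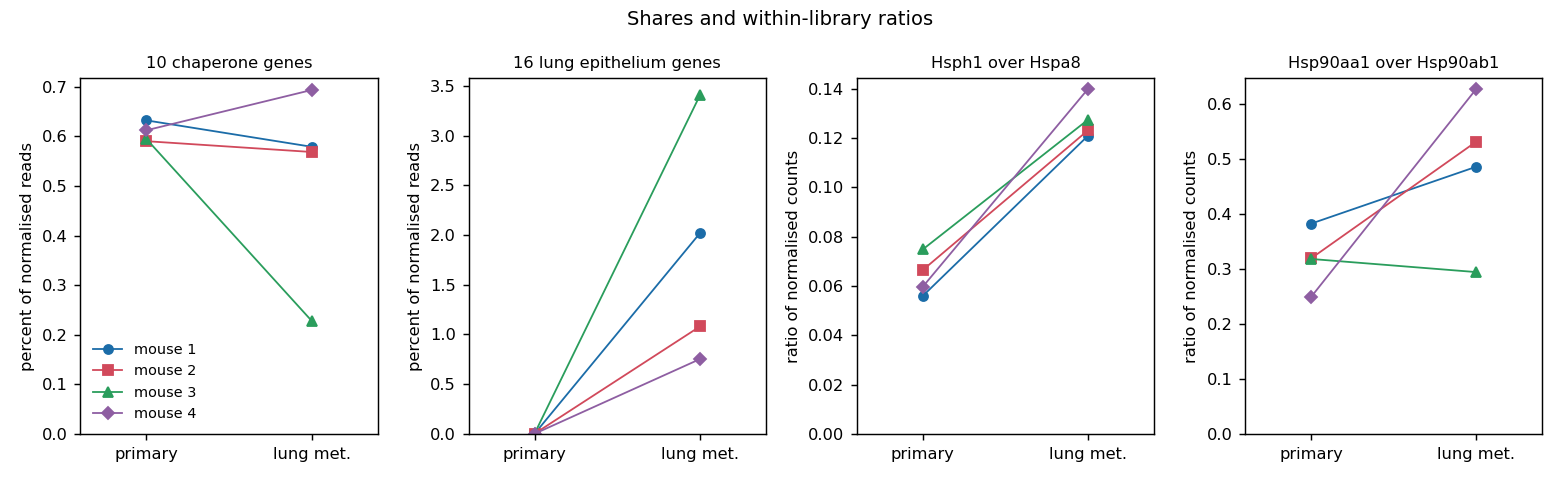
The left panels plot the percent of normalised reads taken by the 10 chaperone genes and by 16 lung epithelium genes, and the right panels the ratio of normalised counts of Hsph1 to Hspa8 and of Hsp90aa1 to Hsp90ab1, in the primary tumour and lung metastasis of each mouse joined by a line. In mouse 3 the chaperone share is 0.228% and the lung epithelium share 3.40%, while its Hsph1 to Hspa8 ratio (0.128) lies among those of the other metastases.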

How the data were processed

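RNA was extracted from bulk tumour tissue with an RNeasy kit and made into libraries with a TruSeq RNA kit, per the labels' protocols; the build was mm9 per the submitters' processing notes, and for the aligner, counting tool and annotation nothing is stated there. The deposited table holds signal values: reads per gene after division by each library's scaled size. All values (100%) of the 8 BC columns came out as whole reads, to within 0.05, once divided by what a single read is worth, which recovered the counts; 12 columns of pancreatic libraries were not used. Genes with at least 1 in at least 4 libraries were tested with limma 3.58.1 (intensity trend, group means) on log2(value + 1). The design had left the unit open, and a count test on recovered reads (edgeR 4.0.16, DESeq2 1.42.0) was an alternative, as were 2 pseudocounts (0.1 and 5), no filter, 2 scalings, array weights, the mouse as a block and each library left out; leaving out mouse 3 was added after seeing the data. The tests were checked on simulated counts with the same extra spread for every gene and no library that stood apart. That check therefore does not cover data with a library like the metastasis of mouse 3. Titles name the mouse of each library, so numbers pair tissues of 1 animal; deviations of same-mouse libraries from their group means correlated at -0.151 to 0.0962 across genes. Replicate libraries differed by more than sampling noise (chi-square per degree of freedom of at least 51.3).

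The members and all gene lists were chosen with earlier results of these data known. Named were all 10 members; from each network list the called genes (up to 4) or else the gene with the smallest p; and the 3 nearest profiles of Hsph1, Hsp90ab1, Hspb1 and Hspd1. Promoter sequences (RefSeq, GRCm38.p6) were matched by symbol for 7 of the 10 members.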

Additional observations from a re-analysis of the deposited data

Results flagged for a closer look

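Values that stood apart from the others of their group of 4 were sought in the 10 genes and the HSP70 sum, 22 groups in all, and 5 were found; chance gives about 1 in 20 groups, and groups of related genes share libraries. In the lung metastases, Hspb1 had none. Hspa1b was far higher in the metastasis of mouse 4 (75.5) than in the other 3 (at most 16.3), and so was the sum of Hspa1a and Hspa1b (82.6); these are 1 pattern, since the sum is mostly Hspa1b. In the primary tumours, Hspb1 was higher in mouse 2 (12.1, against at most 4.33), Hspd1 was lower in mouse 4 (352, against at least 423.5), and the HSP70 sum was lower in mouse 3 (17.4, against at least 21.8).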

How the results depend on the processing

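The count of members called was 1 under 14 of 18 alternatives and 2 with array weights, with DESeq2, without mouse 3 and, over the fits that left out 1 library (1 to 2), without the lung metastasis of mouse 3; the added gene was Hsph1 each time. Of the network 4 genes were called (3 higher, 1 lower), 6 with array weights (5 higher, 1 lower), 6 with DESeq2 (3 higher, 3 lower), 2 with the mouse as a replicate block, 1 with edgeR, and 2 to 4 with 1 library left out. Over all genes 1279 were called, 2283 with array weights, 1985 with DESeq2, 849 without mouse 3 and 563 to 1155 with 1 library left out, where fewer samples were fitted; DESeq2 gave no adjusted p for the HSP70 sum. The block changed the calls of Fkbp5 and Hspb7 and no other named gene.

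The cause of the following turns in sign was not tested, and none of these values was called. Dnajb1 turned above 0 with median-ratio scaling (0.0121), array weights (0.0262) and DESeq2 (0.0142), and Hspd1 with array weights (0.0784) and without mouse 3 (0.16). Hspe1 did so with array weights (0.14), DESeq2 (0.0096) and without mouse 3 (0.25). With 1 library left out, log2 changes ran from -0.13 to 0.0451 for Dnajb1, -0.28 to 0.54 for Hsp90aa1, -0.0892 to 0.50 for Hspa1a, -0.53 to 0.47 for Hspa1b, -0.51 to 0.46 for their sum, -0.42 to 0.14 for Hspd1 and -0.54 to 0.26 for Hspe1. Hsph1, Hsp90ab1, Hspa8 and Hspb1 kept their sign under all 18. Among the members, depth limits Hspa1a most, at 24 to 169 reads per library. In the wider network it also limits Hspb7 (0 to 81 reads) and Hspa12a (0 to 250 reads).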

Other observations

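Ratios of 2 genes within a library do not depend on how libraries were scaled. The pairs below were chosen after their values were seen, so no test is given. Most of the Hspa8 transcript is shared with other genes, so ratios to Hspa8 carry that uncertainty. The ratio of Hsph1 to Hspa8, an exchange factor to the HSP70 it serves, was 0.0560, 0.0665, 0.0749 and 0.0597 in the primary tumours of mice 1 to 4 and 0.121, 0.123, 0.128 and 0.140 in their metastases. It was higher in all 4 mice without overlap, also in mouse 3, where both genes were lower in the metastasis. How often ratios of other genes separate the groups in this way was not counted. The ratio of Hsp90aa1 to Hsp90ab1 was 0.382, 0.319, 0.318 and 0.249 in the primary tumours and 0.486, 0.532, 0.294 and 0.628 in the metastases, higher in mice 1, 2 and 4 and not in mouse 3. The ratio of Dnajb1 to Hspa8 overlapped between the groups (0.0426 to 0.0555 against 0.0433 to 0.0929) and was highest in the metastasis of mouse 3.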
